A study of Saccharomyces cerevisiae with 8 samples.

Results

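The comparison set the ρ0 PDE2 cells against the ρ+ vector cells: 4 of the 8 libraries of the series, 2 per group, with all genes of the deposited table used. Its members were taken by their labels as the libraries of the PDE2 plasmid without mtDNA and those of the empty vector with mtDNA, and no measured value entered the choice. Every culture was of BY4743, a diploid laboratory strain of Saccharomyces cerevisiae (MATa/α his3Δ1/his3Δ1 leu2Δ0/leu2Δ0 met15Δ0/MET15 LYS2/lys2Δ0 ura3Δ0/ura3Δ0). All were grown in synthetic complete medium without uracil so that the plasmid was kept. The ρ+ cells held their mtDNA, carried the empty high-copy 2µ-URA3 vector pRS426 and received no ethidium bromide (EtBr), a dye that blocks the copying of mtDNA. The ρ0 PDE2 cells carried pRS426 with the PDE2 gene and had lost their mtDNA during 24 h in 25 µg/ml EtBr. For the RNA cultures the study states growth to log phase of the ρ+ cells only. For the ρ0 cells it states the 24 h in EtBr, which was still present at harvest. The groups thus differed in mtDNA, in EtBr and in the PDE2 plasmid at once, and may have differed in growth phase. Within this comparison the parts of these differences cannot be told apart. Cells of the same ρ0 state and the same EtBr treatment with the empty vector (ρ0 vector, 2 libraries) gave the test of whether a level was another one with the PDE2 plasmid, and ρ0 cells with a TIP41 plasmid (2 libraries) entered the fit for its estimate of spread. Replicates are numbered 0 and 1, and the study states that different experimenters made the 2 of each group.

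The RNA was polyadenylated RNA read as paired ends, and each library held 1389579 (ρ+ replicate 1) to 4884282 (ρ+ replicate 0) estimated fragments in genes, with 1796286 and 3053408 in ρ0 PDE2 replicates 0 and 1. Levels are given as CPM, the share of a library's fragments that a gene took, brought to a common total with TMM scaling, and they do not correct for the length of a gene, so they compare a gene between libraries and not genes with each other. A gene was called higher or lower where edgeR's quasi-likelihood test gave a Benjamini-Hochberg adjusted p under 0.05 over the 5832 genes tested, and every error beside a log2 fold change is its SE. The estimated fragments of genes that overlap at a deposited locus are uncertain, which holds for 22 of the genes called higher and 14 of those called lower and, among other named genes, for TIP41, ARN2, GNP1, NSR1, MRP4 and MCM3. Log2 CPM of the replicates of a group correlated at 0.972 to 0.978. MFA1 and MFA2, the a-factor genes that a diploid keeps off, held 0 or 1 fragment in each of the 8 libraries.

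Yeast cells that lose mtDNA cannot respire and live by fermentation, because mtDNA encodes core subunits of the respiratory chain and of the ATP synthase. Several nuclear programs are known to answer a damaged mitochondrion: Rtg1p and Rtg3p drive the retrograde genes of the early TCA cycle, Pdr3p drives drug efflux pumps, and Aft1p drives iron uptake when iron-sulfur clusters run short. Protein kinase A (PKA) is switched on by cAMP when glucose is plentiful, holds the stress factors Msn2p and Msn4p out of the nucleus and favours growth, and Pde2p, the high-affinity cAMP phosphodiesterase, breaks that cAMP down.

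The promoters of 6 genes are shown because their lists, described later, are each known to be read through a short element: GCACCC, the core of the Aft1p site, CCGCGG, the Pdr1p and Pdr3p element, AGGGG, the stress response element of Msn2p and Msn4p, ACGCGT, the MluI cell cycle box and CGCGAAA, the Swi4p box. Each stretch holds 150 bases upstream of the gene, read 5′ to 3′ on the gene's strand from the RefSeq genome of build R64, with matches to the element of the gene's own list, on either strand, in capitals: GCACCC in FIT3, CCGCGG in PDR5 and CIS1, AGGGG in HSP26, ACGCGT in RNR1 and CGCGAAA in PCL1. Their places are FIT3 at chrXV:1061226-1061375 (minus strand), PDR5 at chrXV:619340-619489 (plus strand), CIS1 at chrXII:822801-822950 (minus strand), HSP26 at chrII:381564-381713 (plus strand), RNR1 at chrV:298450-298599 (plus strand) and PCL1 at chrXIV:87523-87672 (plus strand).
FIT3: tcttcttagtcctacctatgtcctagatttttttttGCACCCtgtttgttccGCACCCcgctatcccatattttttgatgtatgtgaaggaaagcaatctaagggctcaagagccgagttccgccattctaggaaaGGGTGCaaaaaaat
PDR5: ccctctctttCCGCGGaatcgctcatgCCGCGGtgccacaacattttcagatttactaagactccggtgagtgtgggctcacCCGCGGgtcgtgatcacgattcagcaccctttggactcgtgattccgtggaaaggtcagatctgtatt
CIS1: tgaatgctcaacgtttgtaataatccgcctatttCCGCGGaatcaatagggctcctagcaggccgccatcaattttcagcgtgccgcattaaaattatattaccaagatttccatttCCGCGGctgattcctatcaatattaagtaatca
HSP26: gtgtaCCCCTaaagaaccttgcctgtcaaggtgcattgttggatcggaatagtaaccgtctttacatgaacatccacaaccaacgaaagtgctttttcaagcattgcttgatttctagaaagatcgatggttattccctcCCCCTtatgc
RNR1: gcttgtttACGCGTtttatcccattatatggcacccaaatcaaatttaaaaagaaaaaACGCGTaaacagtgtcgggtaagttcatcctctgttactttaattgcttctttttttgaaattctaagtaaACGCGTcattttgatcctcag
PCL1: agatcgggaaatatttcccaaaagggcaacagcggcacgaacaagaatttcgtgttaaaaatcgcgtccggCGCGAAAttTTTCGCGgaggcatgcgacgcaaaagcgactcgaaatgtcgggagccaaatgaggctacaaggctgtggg

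The 500 bases before the annotated start of the coding sequence were searched in 5984 protein-coding genes. GCACCC lay in 24 of the 29 promoters of the iron regulon (82.8%) and in 7.62% of all promoters, and in 10 of the 11 members that were called and 14 of the 18 that were not. CCGCGG lay in 8 of 19 promoters of Pdr1p and Pdr3p targets (42.1%, against 3.14% of all), in 5 of the 9 called and 3 of the 9 not called. AGGGG lay in 27 of 28 promoters of Msn2p and Msn4p stress genes (96.4%, against 34.1%), in 6 of the 6 called and 20 of the 21 not called. Such elements are how genes of these lists are known, so the shares describe the lists. Within the DNA replication list, ACGCGT lay in 17 of 31 promoters (54.8%, against 5.43% of all): in 9 of the 9 called members and in 8 of the 22 not called. Among the 16 G1 to S genes, CGCGAAA lay in 5 promoters (31.2%, against 5.83%) and ACGCGT in 2 (12.5%). Here CGCGAAA lay in 4 of the 8 called and 1 of the 8 not called, and ACGCGT in 1 of the 8 called and 1 of the 8 not called. Whether an element went with a call was not tested. Matches of GCACCC overlapped matches of AGGGG in 40 of the 5984 promoters, those of ACGCGT and CGCGAAA overlapped in 2, those of CGCGAAA and AGGGG in 1, and the other pairs of elements in 0.

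PDE2 (YOR360C), the gene on the plasmid, was read first. It stood at 137 and 128 CPM in ρ+ replicates 0 and 1 and at 581 and 639 CPM in ρ0 PDE2 replicates 0 and 1, 4.59-fold higher (95% interval of the fit 3.57 to 5.92, adjusted p = 2.51e-06), and at 184 and 153 CPM in the ρ0 vector libraries. The groups did not overlap, and the call held under each of the 13 alternative settings. The genes on either side of PDE2 on chromosome XV, VTS1 and PRT1, were not called, at log2 fold changes of -0.34 ± 0.24 (adjusted p = 0.517) and 0.22 ± 0.15 (adjusted p = 0.48). URA3, the marker of every plasmid here, went the other way: 13417 and 14590 CPM in ρ+ and 1915 and 2699.5 CPM in ρ0 PDE2, 6.07-fold lower (-2.60 ± 0.21 on the log2 scale, adjusted p = 2.57e-06), and it was also lower than in the ρ0 vector libraries, which had 16950 and 15617 CPM (-2.82 ± 0.21, adjusted p = 5.81e-06). URA3 reads come from the plasmid alone, since the strain lacks the chromosomal gene, and plasmid copy number was not measured here. TIP41, which neither plasmid of this comparison carries, was not called (0.34 ± 0.20, adjusted p = 0.378). The 55 genes of the mtDNA in the table held 9 and 6 fragments in the ρ+ libraries and 0 in each ρ0 library, in libraries made from polyadenylated RNA. A count of 0 allows up to 3 fragments, or 1.67 and 0.983 CPM without TMM scaling in ρ0 PDE2 replicates 0 and 1, against 1.84 and 4.32 CPM in ρ+ replicates 0 and 1. Read library by library, the loss of these transcripts was thus near the limit of what this depth shows, and such limits cover counting error only.

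In all, 176 of 5832 genes were higher in ρ0 PDE2 than in ρ+ cells (3.02%) and 123 were lower (2.11%). These are the shares to set beside each count of list members given later. The rises were the larger changes: 76 genes rose and 36 fell by over 2-fold, and 25 rose and 2 fell by over 4-fold. The 25 include PDE2, which the plasmid carries. The 2 are URA3, the plasmid marker, and INH1, which rests on few fragments. The median log2 fold change of all genes was 0.01, which TMM scaling sets near 0, so changes are relative to the bulk of genes and a shift of the whole would not be seen. These are levels in whole cultures, where fewer cells that express a gene and less RNA per cell cannot be told apart. Against the ρ0 vector cells, which lack mtDNA as well, 76 genes were higher and 58 lower in ρ0 PDE2 cells (2.3% called), and this comparison is used here to say which levels differed with the PDE2 plasmid among ρ0 cells. That count of 134 was 571 with replicate number as a block, 216 with DESeq2, 11 in a fit of those 4 libraries, 1 in limma fits of log2(FPKM + 1) or log2(FPKM + 0.1), and 25, 74, 423 and 48 with ρ0 PDE2 replicate 0 or 1 or ρ0 vector replicate 0 or 1 left out, so a single difference from ρ0 vector cells depends on the setting. Both comparisons use the same ρ0 PDE2 libraries, so their values are given side by side and not as independent results. Called genes differed in length: the median was 1078.5 bases for the 162 protein-coding genes that rose, 1617 for the 121 that fell and 1272 for the others. Over 5487 protein-coding genes log2 fold change and length had a Spearman correlation of -0.19, a description across genes that share their libraries, and its part in the results was not tested. The counts against ρ+ rested on all 4 libraries: 59 and 112 genes were called with ρ+ replicate 0 or 1 left out, 141 and 143 with ρ0 PDE2 replicate 0 or 1 left out, and 563 with the block. A blocked p is the adjusted p of that fit, given where it changes a call. A call is said to rest on a library where the gene did not pass without it. The same limma fits called 85 and 80 (FPKM are the deposited fragments scaled to depth and gene length), and 32 of the 299 genes passed under every alternative that tested them.

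**Figure D1:**
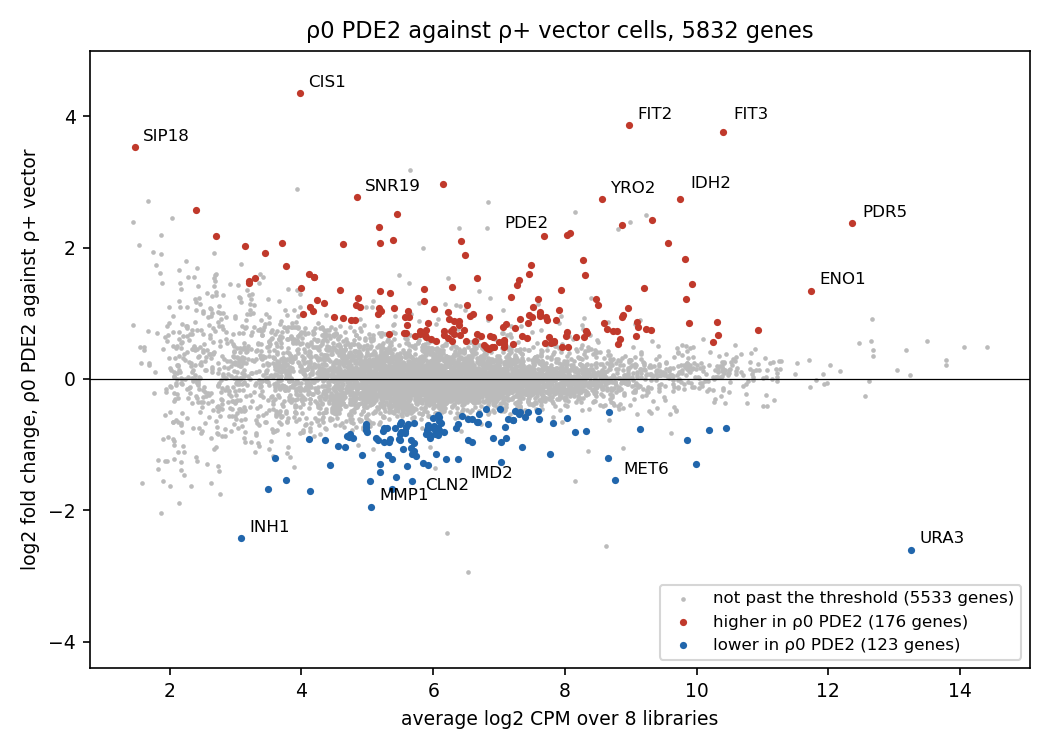
Log2 fold change of ρ0 PDE2 against ρ+ vector (vertical axis) against average log2 CPM over the 8 libraries (horizontal axis), 1 point per gene. The 176 genes called higher (red) reach a log2 fold change of 4.35 (CIS1) and the 123 called lower (blue) reach -2.60 (URA3), and the grey points did not pass the threshold.

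**Figure D2:**
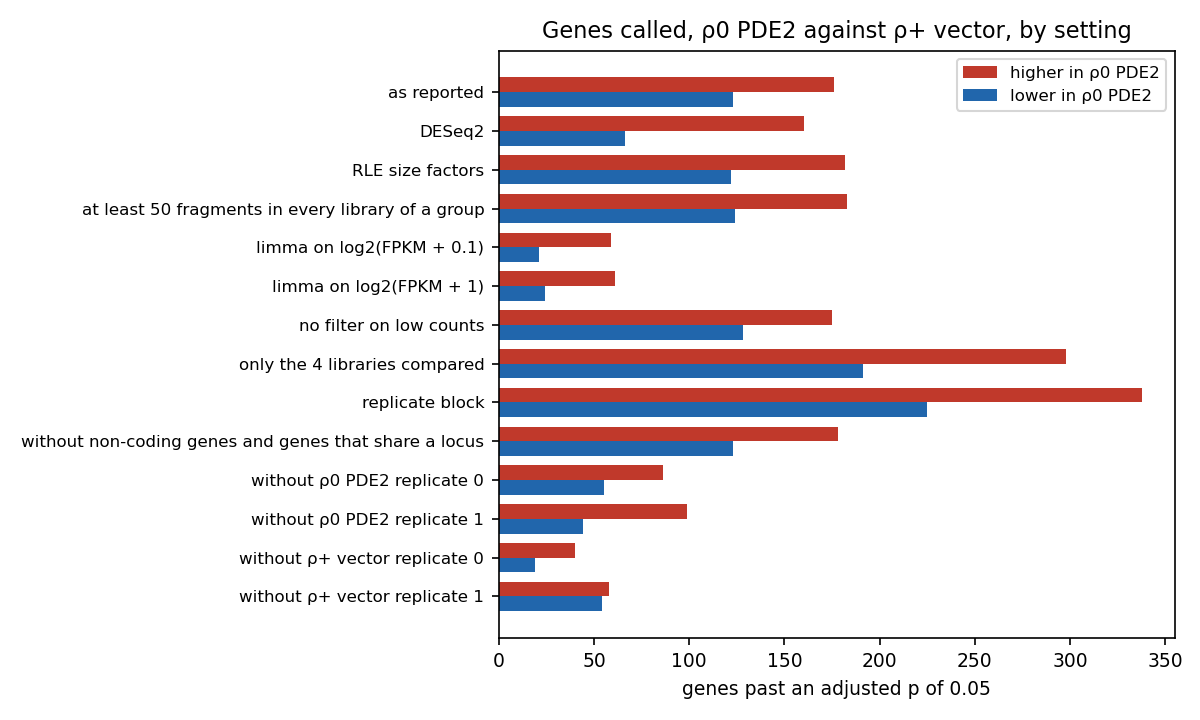
Number of genes past an adjusted p of 0.05 in ρ0 PDE2 against ρ+ vector under the reported fit and 13 alternatives, higher in red and lower in blue. The counts run from 40 higher and 19 lower without ρ+ replicate 0 to 338 higher and 225 lower with the replicate block.

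Of the 12 largest rises among called protein-coding genes of at least 3 in average log2 CPM, each with a locus of its own, 6 belong to lists described later: CIS1, PDR5 and LAF1 of the Pdr1p and Pdr3p targets, FIT2 and FIT3 of the iron regulon, and IDH1 of the retrograde genes. The other 6 were YRO2, BAG7, PIC2, SPO24, ATG40 and TPO2. YRO2, a plasma membrane protein of the Hsp30p family, was at 71 and 43.5 CPM in the ρ+ libraries and 354 and 437 CPM in the ρ0 PDE2 libraries, 6.66-fold higher (2.74 ± 0.36 on the log2 scale, adjusted p = 0.00759). BAG7, a GTPase-activating protein of Rho1p, rose 4.99-fold (7.59 and 2.8 to 28.4 and 33.8 CPM, adjusted p = 0.000348) and was lower than in ρ0 vector cells, at 62.3 and 57.3 CPM (log2 -0.93 ± 0.22, adjusted p = 0.0458). For both genes each ρ0 PDE2 library lay well over each ρ+ library. PIC2, a mitochondrial carrier of phosphate and copper, rose 4.69-fold from 75.1 and 42.1 CPM to 275 and 298 CPM (adjusted p = 0.0197). ATG40, a receptor for the autophagy of the endoplasmic reticulum, rose 4.34-fold from 9.84 and 11.2 CPM to 37.9 and 50.03 CPM (adjusted p = 4.88e-05). TPO2, a plasma membrane exporter of polyamines, rose 4.19-fold to 857 and 777 CPM, from 261 and 119 CPM in ρ+ libraries that stood apart from each other (adjusted p = 0.00514). SPO24, a small protein needed for sporulation, rose 4.52-fold from 38.3 and 58.9 CPM to 229 and 193 CPM (adjusted p = 2.82e-05), and stood at 344 and 436 CPM in ρ0 vector cells, a difference that passed (log2 -0.89 ± 0.18, adjusted p = 0.025). The call of PIC2 rested on ρ0 PDE2 replicate 0 and on ρ0 PDE2 replicate 1 (adjusted p from 0.101 to 0.101 without them).

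Among the 12 largest falls were INH1, MMP1, MHT1, MET6, YOX1, CLN2, PCL1 and SDH1, which recur in the lists described later, and YCR102C, SPT21, ACM1 and CSI2. INH1, the protein that blocks the ATPase activity of the mitochondrial F1 sector, was at 15.6 and 21.7 CPM in the ρ+ libraries and 4.74 and 2.37 CPM in the ρ0 PDE2 libraries, 5.38-fold lower (-2.43 ± 0.41 on the log2 scale, adjusted p = 0.00307), and at 3.24 and 3.63 CPM in ρ0 vector cells, with no difference between the ρ0 groups past the threshold (log2 -0.06 ± 0.52). The ρ0 PDE2 values of INH1 rest on 8 and 7 fragments, against 76 and 31 in ρ+. SPT21, an activator of histone gene transcription, fell 2.93-fold from 59.9 and 56.1 CPM to 14.2 and 24 CPM (adjusted p = 0.00104). ACM1, an inhibitor of the anaphase-promoting complex, fell 2.89-fold from 28.9 and 19.6 CPM to 7.7 and 9.46 CPM (adjusted p = 0.0072). CSI2 fell 2.83-fold from 78.5 and 68.7 CPM to 22.5 and 29.1 CPM (adjusted p = 0.00026) and YCR102C fell 3.26-fold from 25.6 and 26.6 CPM to 7.7 and 8.11 CPM (adjusted p = 0.00359). For these 5 genes the difference between ρ0 PDE2 and ρ0 vector cells did not pass (adjusted p from 0.303 to 0.966). The call of INH1 rested on ρ0 PDE2 replicate 1, those of SPT21 and YCR102C on ρ+ replicate 0, and that of ACM1 on ρ+ replicate 0, on ρ0 PDE2 replicate 0 and on ρ0 PDE2 replicate 1 (adjusted p from 0.0526 to 0.23 without them).

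**Figure D3:**
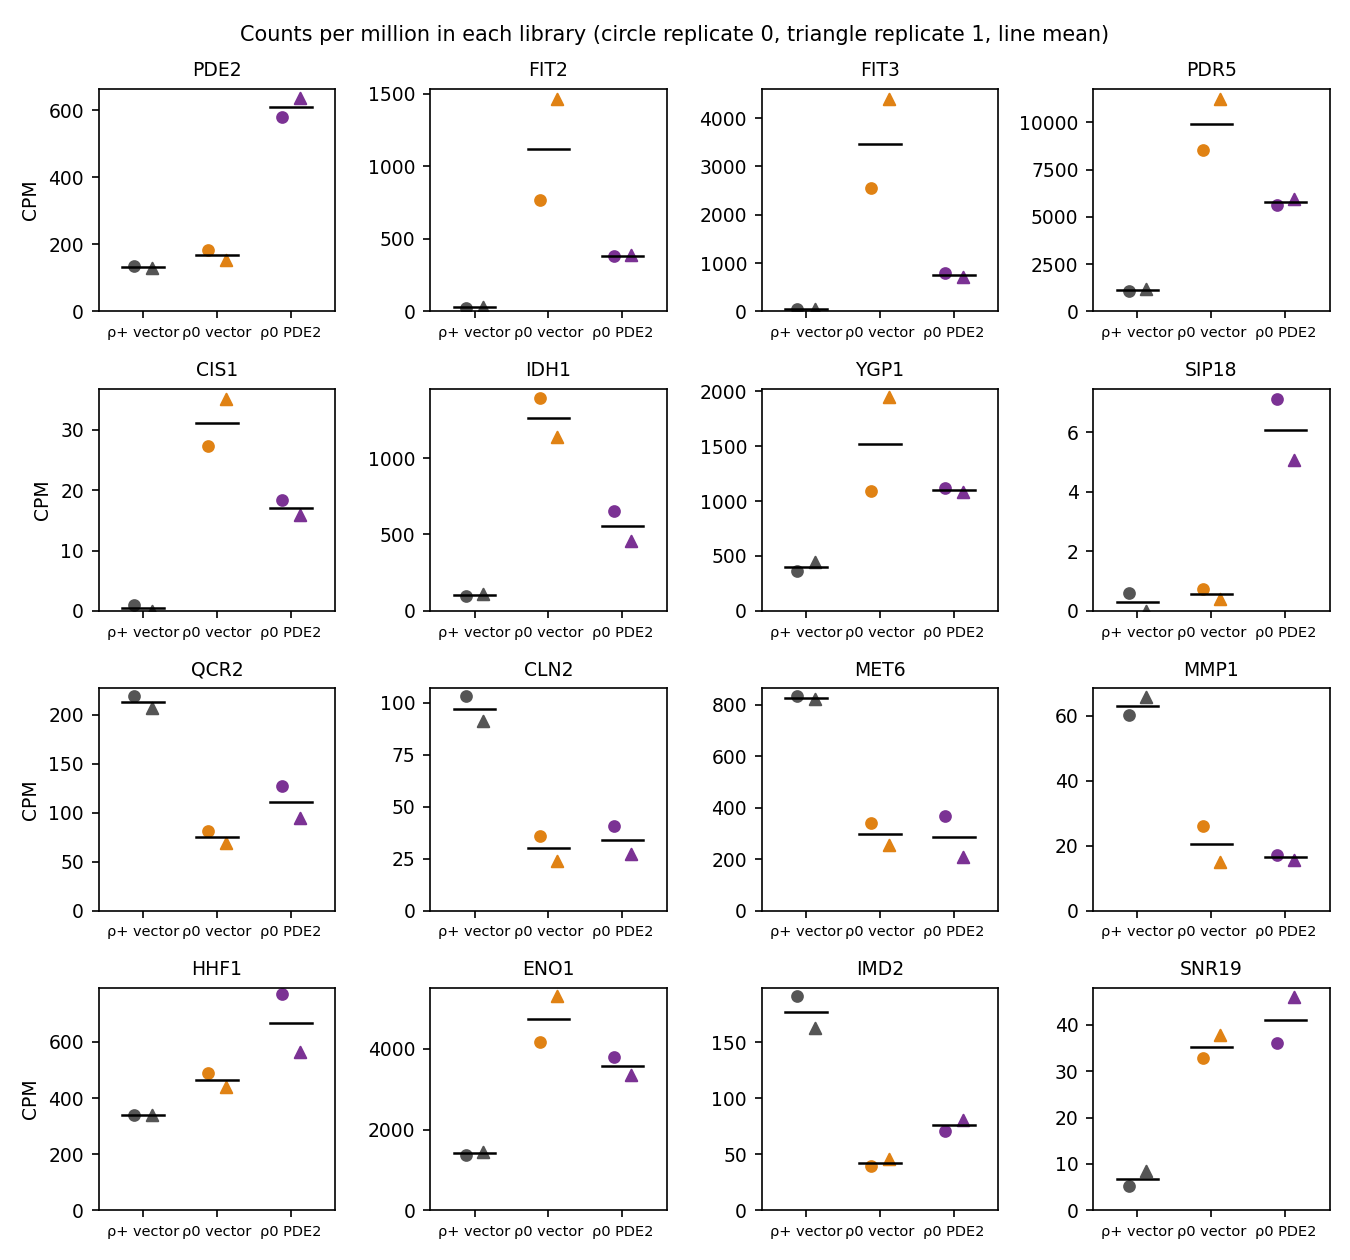
CPM of 16 genes in the ρ+ vector, ρ0 vector and ρ0 PDE2 libraries, 1 panel per gene with its own axis from 0, with replicate 0 as a circle, replicate 1 as a triangle and the mean as a line. FIT3, at 54.5 and 56.1 CPM in ρ+ and 799.7 and 705 CPM in ρ0 PDE2, reaches 2553 and 4387 CPM in ρ0 vector, and QCR2, CLN2, MET6 and MMP1 lie lower in both ρ0 groups than in ρ+.

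Genes of iron uptake were prominent among the rises. Of the 29 tested members of the iron regulon, the genes that Aft1p and Aft2p switch on when iron is short, 11 were higher and 0 lower in ρ0 PDE2 than in ρ+ cells, and the median log2 fold change was 0.91, against 0.01 for all genes. At an unadjusted p under 0.05 2 members were lower, and 1 was called lower with DESeq2 or a fit of the 4 compared libraries. The summed level of the list was 2488 to 2998 CPM in ρ+, 5590 to 6593 CPM in ρ0 PDE2 and 9659 to 14616 CPM in ρ0 vector cells. FIT2 and FIT3, cell wall mannoproteins that hold siderophore iron, had the largest fold changes of the list. FIT3 (YOR383C) was at 54.5 and 56.1 CPM in the ρ+ libraries and 799.7 and 705 CPM in the ρ0 PDE2 libraries, 13.6-fold higher (3.77 ± 0.25 on the log2 scale, adjusted p = 1.42e-06). FIT2 (YOR382W), its neighbour, was at 25.2 and 28 CPM in the ρ+ libraries and 379 and 390.4 CPM in the ρ0 PDE2 libraries, 14.6-fold higher (3.87 ± 0.40 on the log2 scale, adjusted p = 0.00286). For both genes the replicates of each group lay close together and the groups far apart. The siderophore transporters followed: SIT1 rose 3.52-fold (103 and 121 to 342 and 437 CPM, adjusted p = 0.00283) and ENB1 3.01-fold (80.8 and 98.2 to 225 and 306 CPM, adjusted p = 0.0361). ARN1, of the same family, rose 2.56-fold (84.9 and 102 to 227 and 245 CPM, adjusted p = 0.00296). FET3, the multicopper oxidase of high-affinity iron uptake, rose 1.83-fold from 649 and 910.2 CPM to 1262 and 1586 CPM (adjusted p = 0.0215). The other called members were ATX1, a copper chaperone, ISU1, a scaffold of iron-sulfur cluster assembly that shares its deposited locus with another gene, HMX1, heme oxygenase, FRE6, a vacuolar ferric reductase, and BIO5, a transporter of the biotin pathway, at 1.44-fold to 2.94-fold.

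The 18 members that did not pass included some with large fold changes. ARN2, named after its values were seen, was at 72.6 and 76.4 CPM in the ρ+ libraries and 260.4 and 457 CPM in the ρ0 PDE2 libraries (2.28 ± 0.53 on the log2 scale, adjusted p = 0.0962, blocked 4.11e-09). TIS11, a factor that degrades mRNAs of iron-using proteins, named likewise, was at 19.5 and 26.6 CPM in the ρ+ libraries and 76.4 and 136 CPM in the ρ0 PDE2 libraries (2.31 ± 0.57, adjusted p = 0.123, blocked 1.72e-11). FET4, the low-affinity iron transporter, also named after its values were seen, stood at 94.1 and 68 CPM in ρ+ and 28.4 and 49.7 CPM in ρ0 PDE2 (adjusted p = 0.25). Against ρ0 vector cells, 6 of the 29 members were lower in ρ0 PDE2 cells and 0 higher: FIT3 (log2 -2.21 ± 0.22, adjusted p = 0.000263), BIO5 (-1.34), FRE3 (-1.10), ISU1 (-1.03), ARN1 (-0.86) and FRE1 (-0.56). For FIT2 that difference was -1.54 ± 0.34 (adjusted p = 0.068, blocked 1.11e-05). The 6 became 19 lower with the block, 8 lower with DESeq2, 2 lower with a fit of the 4 libraries and 0 with limma. The count of members higher than in ρ+ was 21 with the replicate block or a fit of the 4 compared libraries, 7 with ρ+ replicate 1 left out, 6 with ρ0 PDE2 replicate 1 left out and 2 with ρ+ replicate 0 left out. The calls of FIT2, SIT1 and ARN1 rested on ρ+ replicate 0, that of FET3 on ρ+ replicate 0 and on ρ0 PDE2 replicate 1, and that of ENB1 on each of the 4 libraries (adjusted p from 0.061 to 0.276 without them).

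Pleiotropic drug resistance genes, targets of the transcription factors Pdr1p and Pdr3p, had no member below ρ+ past the threshold in the reported fit. Of 18 tested members, 9 were higher and 0 lower, with a median log2 fold change of 0.92. At an unadjusted p under 0.05 1 member was lower, and 1 was called lower in a fit of the 4 compared libraries. PDR5 (YOR153W), the main drug efflux pump of the plasma membrane, was at 1072 and 1163 CPM in the ρ+ libraries and 5642 and 5919.7 CPM in the ρ0 PDE2 libraries, 5.18-fold higher (2.37 ± 0.18 on the log2 scale, adjusted p = 2.51e-06). CIS1 (YLR346C), a small protein of the mitochondrial surface, had 5 and 0 fragments in the ρ+ libraries and 31 and 47 in ρ0 PDE2, a pooled ratio of 21.2 (95% exact interval 8.69 to 67.0, counting error only), and passed the test (adjusted p = 0.000126). LAF1 (YMR102C) rose 5.1-fold from 103 and 89.1 CPM to 449 and 536 CPM (adjusted p = 1.29e-05). RSB1, a sphingoid base exporter, rose 3.69-fold (29.9 and 29.5 to 111 and 109 CPM, adjusted p = 0.0335). SNQ2, another efflux pump, rose 1.83-fold (299.6 and 356 to 580.1 and 614 CPM, adjusted p = 0.0072). PDR3 itself, the factor tied to mitochondrial damage, rose 3.03-fold from 61.5 and 67.3 CPM to 177 and 209.6 CPM (adjusted p = 0.0139). PDR16, ICT1 and IPT1 rose 2.19-fold, 1.95-fold and 1.40-fold. Each of the 9 was lower in ρ0 PDE2 than in ρ0 vector cells by its fitted value, from -0.88 to -0.08 on the log2 scale, and for 2 this passed: PDR5, at 8533 and 11258 CPM in ρ0 vector cells (-0.78 ± 0.17, adjusted p = 0.0356), and LAF1 (-0.79 ± 0.19, adjusted p = 0.0458), while the count was 7 lower with the block, 4 lower with DESeq2 and 0 with a fit of the 4 libraries or limma. HXT9 was left out by the filter on low counts, with 1 to 11 fragments per library. The count of 9 became 5 with ρ+ replicate 1 or ρ0 PDE2 replicate 1 left out and 4 with ρ+ replicate 0 left out. The call of SNQ2 rested on ρ+ replicate 0 and on ρ0 PDE2 replicate 1, and those of RSB1 and PDR3 on each of the 4 libraries (adjusted p from 0.0507 to 0.225 without them).

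Of 7 retrograde targets, enzymes in and around the early TCA cycle that Rtg1p and Rtg3p switch on so that cells without respiration can make glutamate, 3 rose and 0 fell. IDH1 (YNL037C), a subunit of the mitochondrial isocitrate dehydrogenase, was at 99.9 and 109 CPM in the ρ+ libraries and 655 and 459.7 CPM in the ρ0 PDE2 libraries, 5.34-fold higher (2.42 ± 0.20 on the log2 scale, adjusted p = 6.39e-06). IDH2, its partner, rose 6.71-fold (125 and 118 to 964 and 672 CPM, adjusted p = 1.42e-06), and shares its deposited locus with another gene. ACO1, aconitase, rose 3.56-fold (277 and 237 to 1129 and 708 CPM, adjusted p = 0.0155). For all 3, ρ0 PDE2 replicate 0 stood above replicate 1, and both stood above ρ+. CIT2, the peroxisomal citrate synthase by which the retrograde response is usually read, was at 163 and 90.5 CPM in the ρ+ libraries and 327 and 171 CPM in the ρ0 PDE2 libraries and did not pass (0.93 ± 0.48, adjusted p = 0.386, blocked 0.00041). CIT2 is named after its values were seen. IDH1 and IDH2 were lower than in ρ0 vector cells, which had 1389 and 1135 and 1664 and 1545 CPM (log2 -1.18 ± 0.19 and -0.97 ± 0.18, adjusted p = 0.00479 and 0.0106). For ACO1 that difference was -0.68 ± 0.30 (adjusted p = 0.26, blocked 0.00651). Of the 7 targets 2 were lower than in ρ0 vector cells, against 5 lower with the block, 3 lower with DESeq2 and 0 with a fit of the 4 libraries or limma. The call of ACO1 rested on ρ+ replicate 0 and on ρ+ replicate 1 (adjusted p from 0.117 to 0.12 without them).

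**Figure D4:**
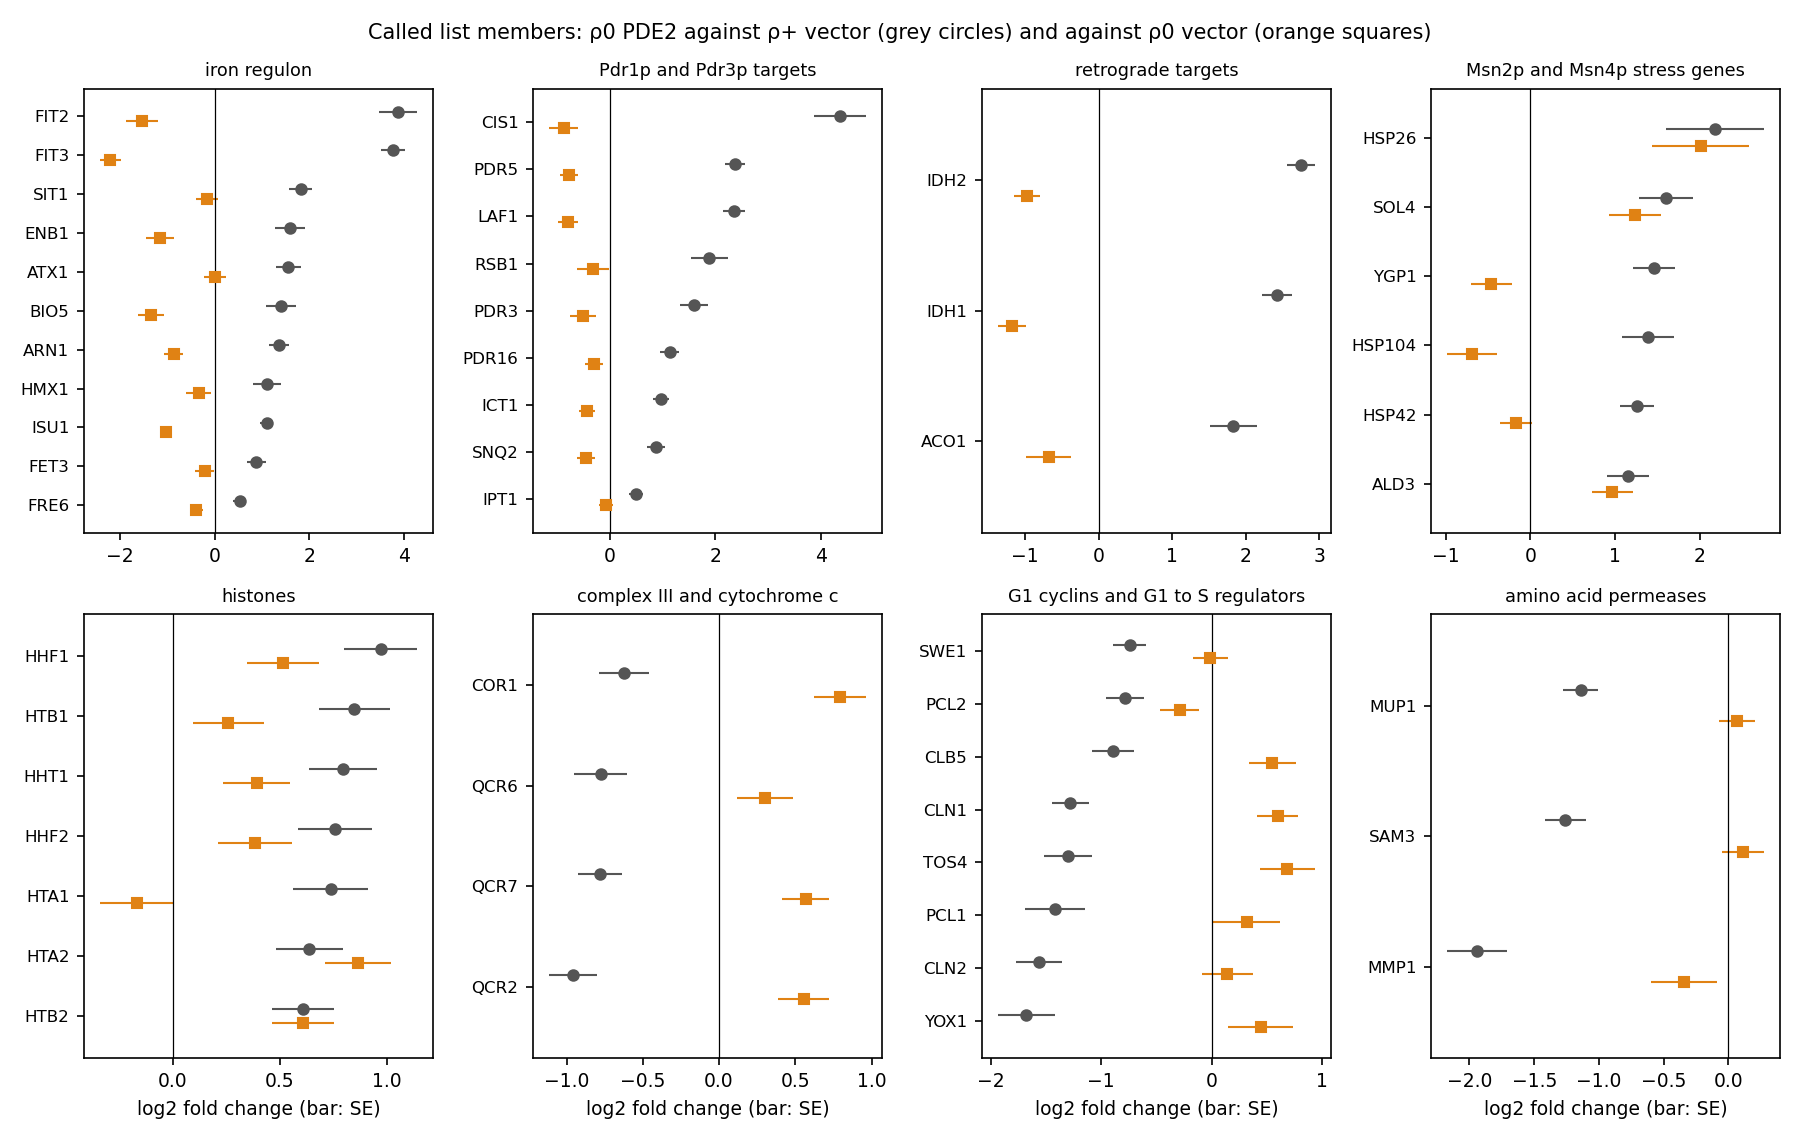
Log2 fold change with its SE for the called members of 8 gene lists, with ρ0 PDE2 set against ρ+ vector (grey circles) and against ρ0 vector (orange squares), each panel with its own axis. FIT3 lies at 3.77 against ρ+ and at -2.21 against ρ0 vector, while HSP26 lies at 2.18 and 2.01.

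Several nuclear genes of the respiratory chain were lower. Of 10 tested members of complex III and cytochrome c, which pass electrons from ubiquinol to cytochrome oxidase, 4 were lower and 0 higher, all 10 fold changes were below 0, and the median was -0.72 on the log2 scale. QCR2, a core subunit, was at 219.6 and 207 CPM in the ρ+ libraries and 127 and 94.7 CPM in the ρ0 PDE2 libraries, 1.94-fold lower (-0.96 ± 0.16 on the log2 scale, adjusted p = 0.00283). QCR7 fell 1.72-fold (90.8 and 91.9 to 56.8 and 50.03 CPM, adjusted p = 0.00514), QCR6 1.71-fold (100.5 and 99.6 to 65.1 and 53.1 CPM, adjusted p = 0.0176) and COR1, the other core subunit, 1.54-fold (224 and 211 to 166 and 119 CPM, adjusted p = 0.0436). COR1 was higher than in ρ0 vector cells, which had 86.8 and 76.7 CPM (log2 0.79 ± 0.17, adjusted p = 0.0302), so in the reported fit its level in ρ0 PDE2 lay between the other groups and differed from each. It was the 1 of 10 higher than in ρ0 vector cells, against 4 higher with the block, 1 with DESeq2 and 0 with a fit of the 4 libraries or limma. CYC7 had 1 to 11 fragments per library and was not tested. What follows is again on members lower than in ρ+. The count of 4 became 2 with DESeq2 or limma on log2(FPKM + 1), 2 with ρ+ replicate 1 left out, 1 with limma on log2(FPKM + 0.1), 1 with ρ0 PDE2 replicate 1 left out and 0 with ρ+ replicate 0 left out.

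Cytochrome oxidase, complex IV, had 1 of 9 nuclear subunits lower, against 2.11% of all genes. This was COX4, at 65 and 58.2 CPM in the ρ+ libraries and 33.1 and 24 CPM in the ρ0 PDE2 libraries, 2.23-fold lower (-1.15 ± 0.24 on the log2 scale, adjusted p = 0.0143). COX6 (-0.52 ± 0.17, adjusted p = 0.0871, blocked 0.0473) and COX13 (-0.06 ± 0.15, adjusted p = 0.877), the subunits with the most fragments, did not pass. COX13 was higher than in ρ0 vector cells (log2 0.82 ± 0.16, adjusted p = 0.0185). It was the 1 of 9 that passed there, against 3 higher with the block and 0 with DESeq2, a fit of the 4 libraries or limma. Of 17 ATP synthase genes, INH1, described before, and ATP7 were lower (ATP7 1.58-fold, 133 and 136 to 83.5 and 86.2 CPM, adjusted p = 0.0143). ATP2, the catalytic β subunit, had 889 and 806 CPM in ρ+ and 661 and 529 CPM in ρ0 PDE2 (adjusted p = 0.0861, blocked 0.0336). Set against ρ0 vector cells, 1 of the 17 was higher, with 2 higher with the block, 1 with DESeq2 and 0 with a fit of the 4 libraries or limma. Of 11 genes of the later TCA cycle, SDH1 and SDH2, the flavoprotein and iron-sulfur subunits of succinate dehydrogenase, fell 2.49-fold (83.7 and 80.6 to 46.2 and 23 CPM, adjusted p = 0.0399) and 1.88-fold (65 and 51.9 to 37.3 and 27.4 CPM, adjusted p = 0.0355). LPD1 and FUM1, the members with the most fragments, gave 0.04 ± 0.16 and 0.10 ± 0.16 (adjusted p = 0.937 and 0.801). Set against ρ0 vector cells, 1 of the 11 was higher, with 4 higher with the block, 1 with DESeq2 and 0 with a fit of the 4 libraries or limma. The counts that follow are of members lower than in ρ+. The count for cytochrome oxidase was 2 with the replicate block or a fit of the 4 compared libraries, 0 with either limma fit and 0 with ρ+ replicate 0, ρ+ replicate 1 or ρ0 PDE2 replicate 1 left out. For the ATP synthase it was 1 with DESeq2 or either limma fit, 1 with ρ+ replicate 0, ρ+ replicate 1 or ρ0 PDE2 replicate 0 left out and 0 with ρ0 PDE2 replicate 1 left out. For the later TCA cycle it was 1 with DESeq2, 1 with ρ0 PDE2 replicate 0 left out, 0 with either limma fit and 0 with ρ+ replicate 0, ρ+ replicate 1 or ρ0 PDE2 replicate 1 left out.

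Some genes of mitochondrial upkeep were higher, by less than 2-fold. Of 56 mitochondrial ribosomal protein genes, 6 were higher and 0 lower (1.41-fold to 1.69-fold), 53 had a fold change above 0, and the median was 0.34 on the log2 scale. MRP20 was at 58.4 and 70.1 CPM in the ρ+ libraries and 111 and 103 CPM in the ρ0 PDE2 libraries (0.75 ± 0.15 on the log2 scale, adjusted p = 0.0092) and MRPL50 at 39.8 and 41.4 CPM in the ρ+ libraries and 69.3 and 64.9 CPM in the ρ0 PDE2 libraries (adjusted p = 0.0179). MRPL27 and MRPS18 rose 1.61-fold and 1.6-fold. MRP4 and MRPS12, the members with the most fragments, did not pass (0.40 ± 0.12 and 0.48 ± 0.13, adjusted p = 0.0773, blocked 0.039, and 0.0503, blocked 0.0154). Of 26 genes of mitochondrial protein import, 3 were higher: PAM16, of the import motor, 1.5-fold (adjusted p = 0.028), SSC1, the matrix Hsp70 that pulls proteins in, 1.47-fold (929 and 930.5 to 1478 and 1265 CPM, adjusted p = 0.048), and TIM10, an intermembrane space chaperone, 1.38-fold (adjusted p = 0.042). TOM70, a receptor of the outer membrane, did not pass (0.09 ± 0.13, adjusted p = 0.776). Of 13 mitochondrial chaperones and proteases, HSP10, SSC1 and MDJ1 were higher, HSP10 from 134 and 126 CPM to 233 and 177 CPM (adjusted p = 0.021) and MDJ1 from 90.8 and 100.3 CPM to 136 and 129.8 CPM (adjusted p = 0.0468). HSP60 did not pass (0.38 ± 0.17, adjusted p = 0.232). Between ρ0 PDE2 and ρ0 vector cells 0 members of these lists passed: the ribosome had 1 higher at an unadjusted p under 0.05, 1 higher with the block, 0 with DESeq2 or limma. Import had 4 higher at an unadjusted p under 0.05, 0 with DESeq2, limma or the block. The chaperones had 2 higher and 1 lower at an unadjusted p under 0.05, 1 higher with the block, 0 with DESeq2 or limma. The ribosomal count was 12 with the replicate block, 2 with DESeq2, 2 with ρ0 PDE2 replicate 1 left out, 1 with ρ+ replicate 1 left out, 0 with either limma fit and 0 with ρ+ replicate 0 or ρ0 PDE2 replicate 0 left out. The import count was 1 with DESeq2, 0 with either limma fit and 0 with any 1 of the 4 libraries left out. The chaperone count was 1 with ρ0 PDE2 replicate 1 left out, 0 with either limma fit and 0 with ρ+ replicate 0, ρ+ replicate 1 or ρ0 PDE2 replicate 0 left out.

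Stress genes of Msn2p and Msn4p, which active PKA holds down, had 6 of 27 tested members higher and 0 lower, all 27 fold changes were above 0, and the median was 0.71 on the log2 scale. YGP1, a secreted glycoprotein induced by starvation, was at 363 and 445 CPM in the ρ+ libraries and 1119 and 1086 CPM in the ρ0 PDE2 libraries, 2.74-fold higher (1.45 ± 0.25 on the log2 scale, adjusted p = 0.00633). SOL4, a lactonase of the pentose phosphate pathway, rose 3.04-fold (9.84 and 5.61 to 28.4 and 24.3 CPM, adjusted p = 0.00811). HSP104, the disaggregase, rose 2.61-fold (165 and 235 to 501 and 531 CPM, adjusted p = 0.0426), and HSP42, a small heat shock protein, 2.38-fold (adjusted p = 0.00395). HSP26, the other small heat shock protein, was at 2.87 and 3.51 CPM in the ρ+ libraries and 20.7 and 8.79 CPM in the ρ0 PDE2 libraries, 4.52-fold higher (2.18 ± 0.58 on the log2 scale, adjusted p = 0.048). It had 35 and 26 fragments in ρ0 PDE2 against 14 and 5 in ρ+, and ρ0 PDE2 replicate 0 stood at over 2 times replicate 1. ALD3, an aldehyde dehydrogenase, rose 2.22-fold (adjusted p = 0.0143). HSP12, named after its values were seen, did not pass: 15.4 and 17.5 CPM in ρ+, 229.7 and 71 CPM in ρ0 PDE2 and 35.7 and 4.03 CPM in ρ0 vector cells (3.18 ± 1.19, adjusted p = 0.273). Its ρ0 PDE2 libraries lay above all others of these groups but far from each other. Against ρ0 vector cells 0 of the 27 members passed (6 higher and 2 lower at an unadjusted p under 0.05, 3 higher and 1 lower with the block, 0 with DESeq2 or limma), with HSP26 at 2.01 ± 0.57 (adjusted p = 0.0788, blocked 0.00347), SOL4 at 1.23 ± 0.31 (adjusted p = 0.0504, blocked 0.008) and ALD3 at 0.97 ± 0.24 (adjusted p = 0.0526, blocked 0.0101), and HSP104 and YGP1 below 0, at -0.69 ± 0.30 (adjusted p = 0.248, blocked 0.0177) and -0.46 ± 0.24 (adjusted p = 0.314). DDR2 had 0 to 8 fragments per library and was not tested. The count of 6 became 15 with a fit of the 4 compared libraries, 11 with the replicate block, 3 with ρ0 PDE2 replicate 0 left out, 1 with either limma fit, 1 with ρ+ replicate 1 left out and 0 with ρ+ replicate 0 left out.

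SIP18, a desiccation protein named after its values were seen, is not in the list. It had 3 and 0 fragments in ρ+, 2 and 1 in ρ0 vector and 12 and 15 in ρ0 PDE2. The pooled ratio to ρ+ was 12.2 (95% exact interval 3.76 to 62.9, counting error only). Since the gene was picked by these same values, the ratio only describes them, and its adjusted p-values are left out. Trehalose and glycogen genes, storage carbohydrates that low PKA activity is known to favour, had 0 of 18 members past the threshold (3 higher and 2 lower at an unadjusted p under 0.05, 3 higher and 1 lower with the block, 1 higher with DESeq2, 0 with limma), with TPS1 at 214 and 191 CPM in the ρ+ libraries and 355 and 333 CPM in the ρ0 PDE2 libraries (0.76 ± 0.24, adjusted p = 0.107, blocked 0.0319). Of 16 cytosolic chaperones driven by Hsf1p, HSP104, HSP42 and SIS1 were higher, SIS1, an Hsp40 co-chaperone, 1.55-fold (adjusted p = 0.0335). SSA2 (0.39 ± 0.18, adjusted p = 0.255) and HSC82 (-0.11 ± 0.17, adjusted p = 0.804) did not pass. The count of 3 became 1 with ρ0 PDE2 replicate 0 or ρ0 PDE2 replicate 1 left out, 0 with either limma fit and 0 with ρ+ replicate 0 or ρ+ replicate 1 left out. In the cAMP and PKA pathway PDE2 was the 1 of 20 genes called, with 2 others lower with the block and 1 lower in a fit of the 4 compared libraries. BCY1, the regulatory subunit of PKA, was at 207 and 209.7 CPM in the ρ+ libraries and 195 and 222 CPM in the ρ0 PDE2 libraries.

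**Figure D5:**
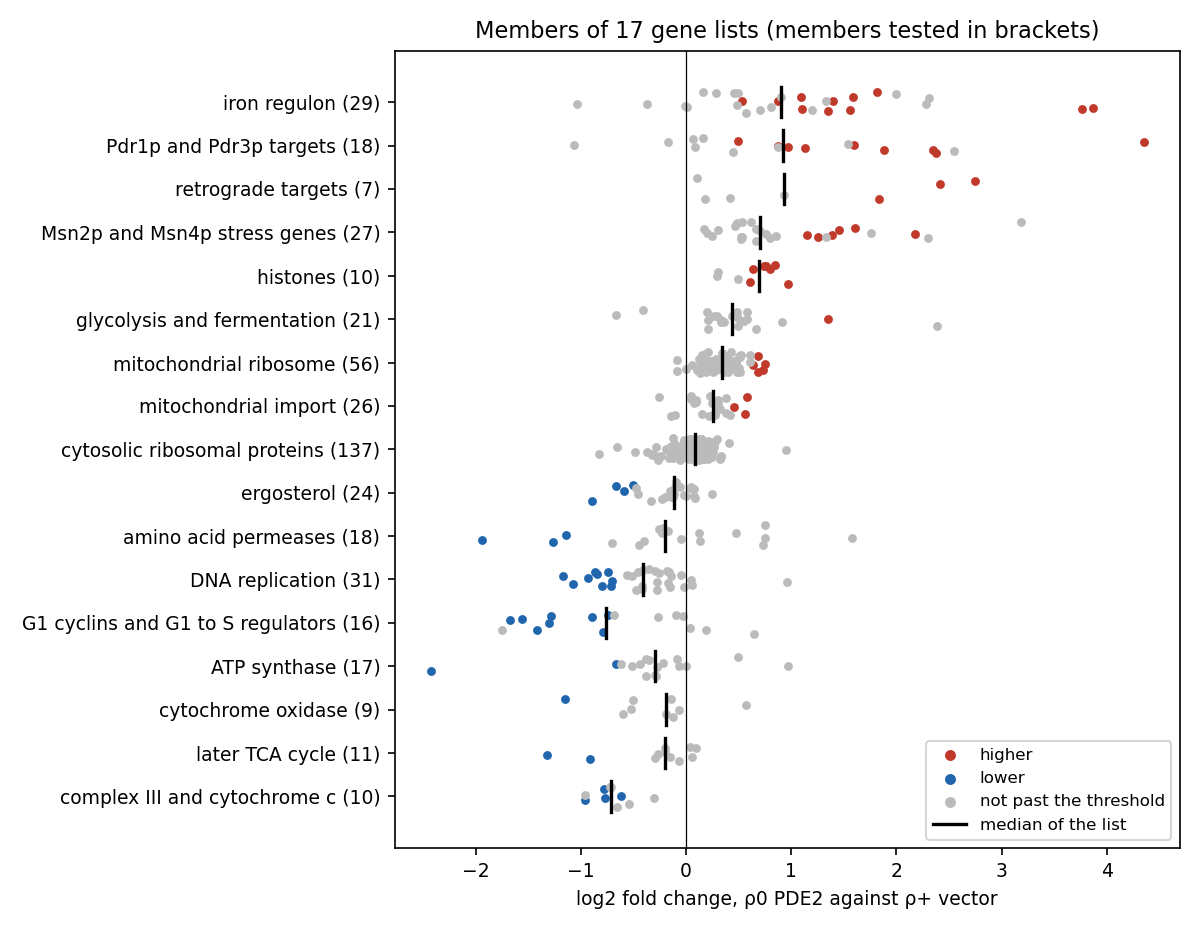
Log2 fold change of ρ0 PDE2 against ρ+ vector for each tested member of 17 gene lists, with members called higher in red, lower in blue and others in grey, and the median of each list as a black bar. The iron regulon has 11 of 29 members in red, the complex III list has all 10 members to the left of 0, and the cytosolic ribosomal proteins lie around 0 with 0 of 137 called.

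Genes of the G1 to S transition were prominent among the falls. Of 16 regulators, 8 were lower and 0 higher, and the median log2 fold change was -0.76. CLN2, a G1 cyclin that starts the cell cycle, was at 103 and 91.2 CPM in the ρ+ libraries and 40.8 and 27.4 CPM in the ρ0 PDE2 libraries, 2.95-fold lower (-1.56 ± 0.21 on the log2 scale, adjusted p = 0.000615). YOX1, a repressor of early cell cycle genes, fell 3.2-fold (97.8 and 71.5 to 36.1 and 20.3 CPM, adjusted p = 0.00327), PCL1, a cyclin of the kinase Pho85p, 2.67-fold (80.2 and 51.2 to 27.8 and 23.7 CPM, adjusted p = 0.0104). TOS4, a nuclear protein of this transition, fell 2.46-fold (71 and 64.5 to 29 and 26.7 CPM, adjusted p = 0.00286). CLN1, CLB5, PCL2 and SWE1 fell 1.67-fold to 2.43-fold. CLN3, the cyclin upstream of them, and SWI6, a subunit of both G1 to S factors, did not pass (-0.27 ± 0.19 and -0.09 ± 0.14, adjusted p = 0.506 and 0.775). Against ρ0 vector cells 0 of the 16 passed (4 higher at an unadjusted p under 0.05, 1 higher with the block, 0 with DESeq2 or limma). The count of 8 became 5 with DESeq2, 4 with ρ0 PDE2 replicate 0 or ρ0 PDE2 replicate 1 left out, 2 with ρ+ replicate 0 left out and 1 with either limma fit, and 1 member was higher with the block. The calls of YOX1 and TOS4 rested on ρ+ replicate 0, and that of PCL1 on ρ+ replicate 0, on ρ0 PDE2 replicate 0 and on ρ0 PDE2 replicate 1 (adjusted p from 0.0589 to 0.199 without them).

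Of 31 DNA replication genes 9 were lower and 0 higher, 28 fold changes were below 0, and the median was -0.40 on the log2 scale. POL30, the sliding clamp, was at 120.0 and 79.9 CPM in the ρ+ libraries and 49.7 and 42.3 CPM in the ρ0 PDE2 libraries, 2.25-fold lower (-1.17 ± 0.20 on the log2 scale, adjusted p = 0.00444). It shares its deposited locus with another gene, as does CDC9, the DNA ligase (2.1-fold lower, adjusted p = 0.00194). POL12, of the primase complex, fell 1.91-fold (59.5 and 43.5 to 20.7 and 33.1 CPM, adjusted p = 0.0399), CDC45, of the replicative helicase, 1.82-fold (38.1 and 38.6 to 20.1 and 21.6 CPM, adjusted p = 0.0244). RNR1, the large subunit of ribonucleotide reductase, fell 1.74-fold (530.1 and 357 to 252 and 261 CPM, adjusted p = 0.0135). The ρ+ replicates of RNR1 and POL30 stood apart from each other, though both lay over both ρ0 PDE2 libraries. POL1, RFA1, RFA2 and RAD27 fell 1.63-fold to 1.80-fold, and MCM3, of the helicase, did not pass (-0.26 ± 0.14, adjusted p = 0.343). Against ρ0 vector cells 0 of the 31 passed (4 higher and 4 lower at an unadjusted p under 0.05, 2 higher with the block, 0 with DESeq2 or limma). The count of 9 became 4 with DESeq2, 4 with ρ0 PDE2 replicate 1 left out, 2 with ρ0 PDE2 replicate 0 left out, 0 with either limma fit and 0 with ρ+ replicate 0 left out. The call of CDC9 rested on ρ+ replicate 0, that of POL30 on ρ+ replicate 0 and on ρ0 PDE2 replicate 1, that of POL12 on ρ+ replicate 0, on ρ+ replicate 1 and on ρ0 PDE2 replicate 0, that of RNR1 on ρ+ replicate 0, on ρ0 PDE2 replicate 0 and on ρ0 PDE2 replicate 1, and that of CDC45 on each of the 4 libraries (adjusted p from 0.061 to 0.407 without them).

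The histone genes did not fall with them: 7 of 10 were higher and 0 lower, all 10 fold changes were above 0, and the median was 0.69 on the log2 scale. The list holds the core histone genes, which cells express in S phase, and also HTZ1 and HHO1. HHF1, a histone H4 gene, was at 341 and 339 CPM in the ρ+ libraries and 771 and 564 CPM in the ρ0 PDE2 libraries, 1.96-fold higher (0.97 ± 0.17 on the log2 scale, adjusted p = 0.00375). HTB1 (H2B) rose 1.8-fold (674 and 673 to 1379 and 1052 CPM, adjusted p = 0.00811), HHT1 (H3) 1.73-fold (438 and 414 to 832 and 648 CPM, adjusted p = 0.00908) and HHF2 (H4) 1.69-fold (458 and 445 to 895 and 638 CPM, adjusted p = 0.0195). HTA1, HTA2 and HTB2 rose 1.53-fold to 1.67-fold, and HHT2 did not pass (0.50 ± 0.18, adjusted p = 0.139, blocked 0.0496). In each of the 4 first named, ρ0 PDE2 replicate 0 stood above replicate 1. The core genes come in near-identical pairs whose fragments the authors' counting may have split, so single members are uncertain. HTA2 and HTB2, a divergent pair, were also higher than in ρ0 vector cells, which had 229.8 and 267 and 414 and 388 CPM (log2 0.87 ± 0.16 and 0.61 ± 0.14, adjusted p = 0.0106 and 0.0435), a count of 2 that was 4 higher with the block, 2 higher with DESeq2 and 0 with a fit of the 4 libraries or limma. Summed over the list, the libraries held 3949 to 3967 CPM in ρ+, 5528 to 7426 CPM in ρ0 PDE2 and 5112 to 5363 CPM in ρ0 vector cells. The count of 7 became 1 with either limma fit, 1 with ρ0 PDE2 replicate 0 left out and 0 with ρ+ replicate 0 or ρ+ replicate 1 left out.

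Of 18 amino acid permeases, 3 were lower and 0 higher: MMP1, the S-methylmethionine permease, at 60.1 and 65.9 CPM in the ρ+ libraries and 17.2 and 15.6 CPM in the ρ0 PDE2 libraries, 3.85-fold lower (-1.94 ± 0.23 on the log2 scale, adjusted p = 0.000198), and SAM3 and MUP1. SAM3, the S-adenosylmethionine permease, was 2.4-fold lower (204 and 237 to 105 and 80.1 CPM, adjusted p = 0.000274), and MUP1, the high-affinity methionine permease, 2.21-fold lower (353 and 376 to 163 and 166 CPM, adjusted p = 0.000218). All 3 passed under each alternative setting, and with the block 4 of the list were lower and 2 higher. Beside them MHT1, which turns S-methylmethionine into methionine and lies next to MMP1 on chromosome XII, fell 3.19-fold (17.4 and 22.4 to 9.47 and 3.72 CPM, adjusted p = 0.0196). BAP2 and GNP1, the permeases with the most fragments, did not pass (0.12 ± 0.16 and -0.22 ± 0.16, adjusted p = 0.73 and 0.53). Of 21 genes of methionine and sulfur metabolism 2 were lower: MET6, methionine synthase, at 834 and 823 CPM in the ρ+ libraries and 368 and 207 CPM in the ρ0 PDE2 libraries, 2.9-fold lower (-1.54 ± 0.25 on the log2 scale, adjusted p = 0.00633), and MET17, which shares its deposited locus with another gene, 2.48-fold lower (89 and 84.1 to 47.4 and 25.7 CPM, adjusted p = 0.0036). CYS4 and SAM1 did not pass (-0.18 ± 0.15 and -0.02 ± 0.16, adjusted p = 0.577 and 0.962). Between ρ0 PDE2 and ρ0 vector cells 0 of the permeases passed (1 higher and 3 lower at an unadjusted p under 0.05, 2 higher and 1 lower with the block, 1 lower with DESeq2, 0 with limma). Of the methionine genes 0 passed (1 higher and 2 lower at an unadjusted p under 0.05, 1 higher with the block, 0 with DESeq2 or limma). The methionine count was 1 with limma on log2(FPKM + 1), 1 with ρ+ replicate 1 left out, 0 with limma on log2(FPKM + 0.1) and 0 with ρ+ replicate 0 left out. The call of MET17 rested on ρ+ replicate 0, that of MET6 on ρ+ replicate 0 and on ρ+ replicate 1, and that of MHT1 on ρ+ replicate 0, on ρ+ replicate 1 and on ρ0 PDE2 replicate 1 (adjusted p from 0.0599 to 0.254 without them).

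IMD2, the inducible IMP dehydrogenase of GMP synthesis, was the 1 called member of 16 purine genes. It was at 191 and 163 CPM in the ρ+ libraries and 71 and 80.5 CPM in the ρ0 PDE2 libraries and at 39.3 and 45.6 CPM in ρ0 vector cells. The level was 2.34-fold lower than in ρ+ (-1.23 ± 0.14 on the log2 scale, adjusted p = 0.000143) and higher than in ρ0 vector (log2 0.85 ± 0.15, adjusted p = 0.0106), so the 3 groups formed an order with no overlap. The call against ρ+ held under all 13 alternatives. URA3 was the 1 of 13 pyrimidine genes called against ρ+, and URA2 did not pass (-0.36 ± 0.17, adjusted p = 0.273), while 3 were called with the replicate block. Against ρ0 vector cells URA3 was lower and 2 other pyrimidine genes were higher. The count higher was 3 with the block, 2 with DESeq2 and 0 with a fit of the 4 libraries or limma. Of 24 ergosterol genes 4 were lower: ERG5 1.86-fold (222 and 239.8 to 123 and 125 CPM, adjusted p = 0.00194), MVD1 1.59-fold (315 and 311 to 192 and 201 CPM, adjusted p = 0.0103), HMG1, an HMG-CoA reductase, 1.5-fold (adjusted p = 0.0217) and ERG25 1.42-fold (adjusted p = 0.0468). ERG3 and ERG11 did not pass (0.25 ± 0.17 and -0.33 ± 0.16, adjusted p = 0.478 and 0.289). ERG5, with 84.3 and 64.2 CPM in ρ0 vector cells, was 1 of 3 members higher in ρ0 PDE2 than there (log2 0.74 ± 0.15, adjusted p = 0.0185), against 8 higher and 1 lower with the block, 5 higher with DESeq2 and 0 with a fit of the 4 libraries or limma. The ergosterol count was 2 with ρ0 PDE2 replicate 1 left out, 1 with ρ+ replicate 0, ρ+ replicate 1 or ρ0 PDE2 replicate 0 left out and 0 with either limma fit. OLE1, the fatty acid desaturase, named after its values were seen, fell 2.45-fold from 1830.3 and 1593 CPM to 654 and 742 CPM (adjusted p = 0.000271).

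In central carbon metabolism ENO1, an enolase, was the 1 of 21 glycolysis and fermentation genes called, at 1359 and 1454 CPM in the ρ+ libraries and 3811 and 3346 CPM in the ρ0 PDE2 libraries, 2.54-fold higher (1.35 ± 0.18 on the log2 scale, adjusted p = 0.000372), and it passed under every alternative. Yet 19 of the 21 fold changes were above 0, with a median of 0.44 on the log2 scale. The sum of the list was 104780 to 108040 CPM in ρ+, 143070 to 147660 CPM in ρ0 PDE2 and 113980 to 119820 CPM in ρ0 vector cells. Between ρ0 PDE2 and ρ0 vector cells 0 of the list passed (6 higher and 2 lower at an unadjusted p under 0.05, 2 higher and 1 lower with the block, 1 higher with DESeq2, 0 with limma). TDH3 and FBA1, its most abundant members, were at 18125 and 19326 CPM and 14703 and 14479 CPM in ρ+ and at 27918 and 24848 CPM and 19932 and 20980 CPM in ρ0 PDE2 (adjusted p = 0.105, blocked 0.0232, and 0.121, blocked 0.0277), and TDH3 has close paralogues. The count of 1 became 10 with a fit of the 4 compared libraries, 9 with the replicate block or DESeq2 and 2 with either limma fit, and 1 was lower with the block. MLS1, malate synthase of the glyoxylate cycle, was the 1 of 13 gluconeogenic genes called (2.9-fold higher, 3.08 and 4.91 to 7.1 and 12.8 CPM, adjusted p = 0.0479). That count was 2 with the replicate block, 0 with DESeq2 or either limma fit and 0 with ρ+ replicate 0, ρ+ replicate 1 or ρ0 PDE2 replicate 1 left out. Hexose transporters and sensors had 0 of 14 past the threshold (1 higher and 2 lower at an unadjusted p under 0.05, 1 higher and 1 lower with the block, 1 lower with DESeq2, 0 with limma), with HXT1 at -0.22 ± 0.19 and HXT3 at 0.13 ± 0.19 (adjusted p = 0.595 and 0.782), both of them among near-identical transporters. GCV1, GCV2 and GCV3, subunits of the mitochondrial glycine decarboxylase, named after their values were seen, rose 2.12-fold, 2.09-fold and 1.93-fold (adjusted p = 0.0177, 0.0181 and 0.00773). DIC1, the mitochondrial dicarboxylate carrier, and NDE1, the external NADH dehydrogenase, named likewise, rose 2.7-fold (80.2 and 89.8 to 231 and 225 CPM, adjusted p = 2.4e-05) and 2.33-fold (385 and 405 to 937 and 902 CPM, adjusted p = 0.000348).

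Arginine synthesis and aromatic amino acid breakdown gave few calls against ρ+. Of 10 arginine genes CPA1, the small subunit of carbamoyl phosphate synthetase, was higher (272 and 288 to 430.3 and 378 CPM, 1.44-fold, adjusted p = 0.048), and it did not pass without any 1 of the 4 libraries or with either limma fit. ARG4, argininosuccinate lyase, was at 110.3 and 114 CPM in ρ+, 73.4 and 85.9 CPM in ρ0 PDE2 and 169 and 464 CPM in ρ0 vector cells, whose replicates stood far apart (-0.48 ± 0.61 against ρ+, adjusted p = 0.753). CPA1 and ARG3, 2 of the 10, were lower in ρ0 PDE2 than in ρ0 vector cells (log2 -0.59 ± 0.14 and -1.61 ± 0.39, adjusted p = 0.0458 and 0.0497), against 4 lower with the block, 6 lower with DESeq2 and 0 with a fit of the 4 libraries or limma. ARO10, a decarboxylase of aromatic amino acid breakdown, was at 159 and 325 CPM in the ρ+ libraries and 37.3 and 26 CPM in the ρ0 PDE2 libraries, the ρ+ replicates far apart, and did not pass (-2.93 ± 0.71, adjusted p = 0.125), so 0 of the 5 tested genes of its list passed (2 lower at an unadjusted p under 0.05, 1 lower with DESeq2, 0 with limma or the block). Arginine, proline and GABA breakdown had 0 of 8 called (2 higher at an unadjusted p under 0.05, 2 higher with the block, 0 with DESeq2 or limma), with PUT2 at -0.05 ± 0.18 and UGA1 at 0.54 ± 0.17 (adjusted p = 0.923 and 0.0807, blocked 0.0256).

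Genes of ribosome building gave few calls against ρ+. Of 137 cytosolic ribosomal protein genes, which active PKA is known to favour, 0 passed in either direction (1 higher and 2 lower at an unadjusted p under 0.05, 2 lower with the block, 1 lower with DESeq2, 0 with limma), and the median was 0.08 on the log2 scale, with RPL3 at 6821 and 7049.9 CPM in the ρ+ libraries and 6032 and 5516 CPM in the ρ0 PDE2 libraries and RPS31 at 0.21 ± 0.16 (adjusted p = 0.42 and 0.539). Against ρ0 vector cells 5 of them were higher in ρ0 PDE2 in the reported fit, but 75 higher with the block, 56 higher with DESeq2 and 0 with a fit of the 4 libraries or limma, and 101 were higher at an unadjusted p under 0.05. The summed level was 157400 to 175970 CPM in ρ+, 166620 to 181250 CPM in ρ0 PDE2 and 108220 to 144330 CPM in ρ0 vector cells, with single paralogues uncertain. Ribosome biogenesis had 0 of 35 called (2 higher at an unadjusted p under 0.05, 1 higher with the block, 0 with DESeq2 or limma), with NSR1 at 0.08 ± 0.18 and DBP2 at 0.28 ± 0.19 (adjusted p = 0.87 and 0.492). RNA polymerase I had 1 of 10 called, RRN3 (1.44-fold higher, adjusted p = 0.0428), with RPA135 and RPA190 at -0.14 ± 0.16 and -0.02 ± 0.15 (adjusted p = 0.695 and 0.965). RRN3 did not pass with DESeq2, with either limma fit or without ρ+ replicate 0, ρ+ replicate 1 or ρ0 PDE2 replicate 1.

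Smaller lists gave single calls, to be set beside 3.02% of all genes higher and 2.11% lower. In the cell wall, PIR3 was higher (20.1 and 14 to 39.1 and 35.8 CPM, adjusted p = 0.0195) and PIR1 and EGT2 were lower (PIR1 2087 and 1839 to 1122 and 1225 CPM, EGT2 1456 and 1214 to 703 and 702 CPM, adjusted p = 0.0143 and 0.00336) of 19 mannoproteins. SED1 and CCW12 did not pass (-0.03 ± 0.26 and 0.44 ± 0.16, adjusted p = 0.974 and 0.128, blocked 0.0478). The count of members higher was 4 with the replicate block or a fit of the 4 compared libraries, 3 with DESeq2, 0 with either limma fit and 0 with ρ+ replicate 0, ρ+ replicate 1 or ρ0 PDE2 replicate 0 left out. That of members lower was 1 with ρ+ replicate 1, ρ0 PDE2 replicate 0 or ρ0 PDE2 replicate 1 left out, 0 with either limma fit and 0 with ρ+ replicate 0 left out. Of 12 meiosis and sporulation genes, SPO24 and NDT80, a meiotic transcription factor (1.62-fold, 27.5 and 26.6 to 38.5 and 48.3 CPM, adjusted p = 0.0357), were higher, with 1 other lower with the block, and 1 was left with DESeq2, with either limma fit or without ρ+ replicate 0, ρ+ replicate 1 or ρ0 PDE2 replicate 1. Of 6 glutathione transferases GTO3 was higher (4.14-fold, 4.51 and 4.91 to 14.2 and 23 CPM, adjusted p = 0.048) and did not pass without any 1 of the 4 libraries or with either limma fit. The hypoxic and heme genes (21 tested), phosphate genes (14), peroxide and superoxide defence (21) and mating and haploid genes (9) had 0 members past the threshold against ρ+. At an unadjusted p under 0.05 the hypoxic list had 2 higher and 1 lower, the phosphate list 1 lower, the peroxide list 1 higher and 4 lower and the mating list 2 higher and 1 lower, and DESeq2 and limma called 0 in each. HAP4, the activator of respiratory genes, was at 225 and 174 CPM in the ρ+ libraries and 358 and 303 CPM in the ρ0 PDE2 libraries (0.71 ± 0.24, adjusted p = 0.124, blocked 0.00256). AHP1 and TSA1, thioredoxin peroxidases, gave 0.46 ± 0.23 and -0.26 ± 0.21, VTC4 and PHO3 -0.18 ± 0.15 and 0.24 ± 0.29, and SAG1 and AGA1 0.13 ± 0.15 and -0.16 ± 0.19. With the replicate block, 1 hypoxic gene and 1 mating gene were higher than in ρ+, and 1 phosphate gene and 3 peroxide genes were lower. Against ρ0 vector cells 3 of the 21 peroxide genes were higher and 0 lower, beside 2.3% of all genes called. That count was 7 higher with the block, 5 with DESeq2 and 0 with a fit of the 4 libraries or limma. There 1 hypoxic and 1 mating gene were lower and 0 phosphate genes passed, and 2 mannoproteins were higher and 1 lower. These calls were also 0 in that fit of 4 libraries and with limma.

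Structural RNAs without a long poly(A) tail had 10 rises, a group singled out after its values were seen. Of 37 tested small nuclear, small nucleolar and other structural RNAs, 10 were higher and 0 lower, 35 had a fold change above 0, and the median was 0.89 on the log2 scale. SNR19, the U1 RNA of the spliceosome, was at 5.13 and 8.41 CPM in the ρ+ libraries and 36.1 and 46 CPM in the ρ0 PDE2 libraries, 6.84-fold higher (2.77 ± 0.28 on the log2 scale, adjusted p = 2.82e-05). LSR1, the U2 RNA, rose 5.7-fold (8.82 and 13.3 to 55 and 60.5 CPM, adjusted p = 1.86e-05) and SCR1, the RNA of the signal recognition particle, 4.27-fold (24.2 and 35.8 to 139 and 105 CPM, adjusted p = 0.0072). Their summed level was 627 and 779.7 CPM in ρ+ replicates 0 and 1, 1188 and 1500.2 CPM in ρ0 PDE2 and 1346 and 1507 CPM in ρ0 vector cells, so all ρ0 libraries lay over both ρ+ libraries. Between ρ0 PDE2 and ρ0 vector cells 0 of the 37 passed (2 higher at an unadjusted p under 0.05, 2 higher with the block, 0 with DESeq2 or limma), the smallest adjusted p being 0.208. The libraries were made from polyadenylated RNA, and whether the carry-over of such RNAs differed between libraries was not tested. The 10 became 16 with the replicate block, 2 and 6 without ρ+ replicates 0 and 1, and 9 and 4 without ρ0 PDE2 replicates 0 and 1.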

How the data were processed

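RNA of 8 cultures was measured, 4 groups of 2, grouped by their GEO labels. Per the labels and the study's methods, the authors aligned paired reads with TopHat2 2.0.14 to the S288C genome R64 and quantified genes in Cuffdiff 2.2.1.1, under geometric normalization and with bias and multi-read correction. Whether its counting used strand is not given in the sources used here, so overlapping and antisense genes cannot be told apart. The deposited estimated counts are the authors' fragments per gene and library before scaling, of which 12.3% of those above 0 were not whole (beyond 0.001) and were rounded. The deposited FPKM values, which the authors scaled to depth and gene length, served the limma alternatives only. The authors' own fold changes and p-values were not used.

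Of 7105 genes, 5832 passed filterByExpr. The test was edgeR 4.0.16's quasi-likelihood test (robust, TMM, R 4.3.3) on all 8 libraries with Benjamini-Hochberg adjustment over all genes tested, and the method was tested on simulated counts. Limma 3.58.1 and DESeq2 1.42.0 gave alternatives, beside RLE scaling, other filters, a fit of the 4 libraries compared, a replicate block, a fit without non-coding genes and genes that share a locus, and each compared library left out. Depth was 1389579 to 4884282 fragments per library, and exact intervals and limits of a count of 0 cover counting error only, while the intervals and SEs of the fit hold the spread between libraries. Nothing beyond the experimenter says how separate the cultures of a group were, so p-values measure the spread between these libraries.

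The study states that different experimenters made the 2 replicates of a group, but not whether a number stands for the same experimenter in all groups. Deviations of same-numbered libraries from their group means correlated by 0.24 to 0.60 in every pair of groups (5341 genes). The reported fit held the group only and used no pairs. Replicate number entered as a block in an alternative fit. Blocked values stand beside results whose call they change or whose count they move by over 1.5 times.

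Gene lists and the rule for named genes were chosen with earlier results of these data known. Named were the plasmid and mtDNA genes, the 12 largest rises and falls among called protein-coding genes with a locus of their own, an average log2 CPM of 3 or more and groups that do not overlap, and up to 5 called and 2 uncalled members of each list, the latter by abundance. Genes named by another route include further called members of a list, members that passed against ρ0 vector cells, and genes marked as chosen after their values were seen. Gene names came from the table, and coordinates and promoters from the RefSeq annotation of R64, to which 6008 genes matched by locus tag and 34 by symbol.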

Additional observations from a re-analysis of the deposited data

How the results depend on the processing

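The number of genes past the threshold in ρ0 PDE2 against ρ+ cells, 299 in the reported fit (176 higher and 123 lower), was 563 with replicate number as a block (338 and 225), 489 in a fit of only the 4 libraries compared (298 and 191), 85 with limma on log2(FPKM + 1) (61 and 24) and 80 with limma on log2(FPKM + 0.1) (59 and 21). DESeq2 called 226 (160 and 66), a larger share of them higher, and RLE size factors, both other filters and the fit without non-coding genes and genes that share a locus stayed within 1.5 times of 299. Leaving out 1 library gave 59 to 143 genes, the lowest without ρ+ replicate 0. The number between ρ0 PDE2 and ρ0 vector cells, 134 in the reported fit, was 571 with the replicate block, 216 with DESeq2, 11 in a fit of only those 4 libraries, 1 with limma on log2(FPKM + 1) and 1 with limma on log2(FPKM + 0.1), and 25 to 423 with 1 library left out. A fit without 1 library leaves a lone sample in its group, which is then assumed to vary like the other groups.

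Of the 140 genes named by rule, 82 were called, and 0 of those changed direction under any alternative that tested them. The 1803 pairs of a gene named by rule and an alternative include those of the 58 genes not called. Of these pairs 1458 kept direction and status, which includes uncalled genes that stayed uncalled. Another 287 lost the call, 32 gained it and 26 changed sign in a gene that had not been called. Of the 82 called genes, 17 passed under every alternative that tested them. The replicate block ended 0 of their calls and added 12, ρ+ replicate 0 left out ended 59, and limma on log2(FPKM + 0.1) ended 51. The cause of these differences was not tested, beyond fewer libraries and fewer residual degrees of freedom in the fits that leave a library out. Depth limits the mtDNA genes, CIS1, SIP18, INH1 and HSP26, which rest on few fragments in 1 of the groups.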
